A study of Mus musculus with 18 samples.

Results

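The response of mammary organoids to EGF medium as against a Wnt-type medium was compared between wild-type organoids and organoids without RasGRP1. The quantity is an interaction on the log2 scale: the difference between EGF and Wnt medium in the knockout, minus the same difference in the wild type. A positive value means that a gene stood higher in EGF medium, relative to Wnt medium, in the knockout than in the wild type. The 12 libraries of the 4 groups were taken, of 18 in the series, and all 16581 genes that passed a filter on low counts were tested, of 55536 in the table. The rule for libraries and genes used labels and a count filter, and no measured difference. The comparison and the gene lists were, however, chosen with earlier results of these data known.

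Organoids are small three-dimensional cultures of epithelium. Here they were grown from mammary glands of C57BL/6 mice aged 6 to 7 weeks, in pellets of matrigel, a gel of basement membrane proteins, in a DMEM/F12 medium with insulin, transferrin and selenium that all groups shared. The genotypes were wild type (WT) and RasGRP1-/- (KO). The EGF groups received EGF at 2.5 nM, and the RW groups received NGS-Wnt, a surrogate that activates Wnt receptors, at 0.1 nM together with Rspo2 (R-spondin 2) at 8.3 nM. Treatment lasted 5 days. Each of the 4 groups, WT_RW, WT_EGF, KO_RW and KO_EGF, has 3 biological replicates, and each of the 3 batches named in the labels holds 1 library of every group. The labels name no tissue-specific deletion. The deleted part of the gene, how many mice stand behind a replicate and whether WT and KO mice of a batch were littermates were not stated.

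EGF binds its receptor and switches on Ras and then the ERK kinases, which induce a set of target genes and their own inhibitors. Wnt ligands stabilise beta-catenin, which acts with TCF/LEF factors, and R-spondins hold Wnt receptors at the cell surface. RasGRP1 is an exchange factor that loads Ras with GTP and is best known in lymphocytes. In the mammary gland, EGF receptor signals drive branching and Wnt signals maintain basal and stem-type cells.

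The 12 libraries held 24290097 to 31269899 counts, and mitochondrial genes took 1.41% to 2.26% of them. The labelled epithelium was present in all 12: Epcam stood at 704 to 1163 CPM (counts scaled to a library of one standard size), Krt8 at 477 to 1083 and Krt14 at 1153 to 3538. Rasgrp1 itself (chr2:117279993-117343001, GRCm38) had few reads, with counts of 28, 10 and 25 in WT_RW, 15, 15 and 21 in WT_EGF, 0, 0 and 9 in KO_RW, and 0, 6 and 4 in KO_EGF. Its summed count was 114 in the WT libraries and 19 in the KO libraries, and the groups of the 2 genotypes did not overlap in either medium. One library stood apart: replicate 2 of KO_RW had the largest residual spread (SD 0.423 log2 over genes, against 0.296 for the library with the least), the fewest detected genes (18926) and the highest mitochondrial share, and its dissociation and heat-shock genes summed to 23501 CPM, against 8735 and 13613 in the other KO_RW libraries. Part of this was shared by batch 2, whose library had the highest mitochondrial share and dissociation and heat-shock sum in each of the 4 groups. That sum was 16608 CPM in its KO_EGF library, 15238 in WT_EGF and 15005 in WT_RW. Values without replicate 2 of KO_RW are given beside the lists and genes described in detail that moved most when it was left out.

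Both genotypes responded strongly to the medium, and in the same direction. In WT 1349 genes were higher in EGF medium (8.14%) and 1059 lower (6.39%) at an adjusted p under 0.05 (edgeR quasi-likelihood test with Benjamini-Hochberg adjustment), which is 14.5% of the genes tested. In KO 1185 were higher (7.15%) and 914 lower (5.51%), or 12.7% together. Both lists shared 1670 genes, 69.4% of the WT list and 79.6% of the KO list, and all 1670 had moved the same way. Of the 738 genes called in WT alone, 724 had the same sign in KO, and of the 429 called in KO alone, 421 had the same sign in WT. Across all genes tested, the WT and KO responses, which share the batches but no library, had a Pearson correlation of 0.69.

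**Figure D1:**
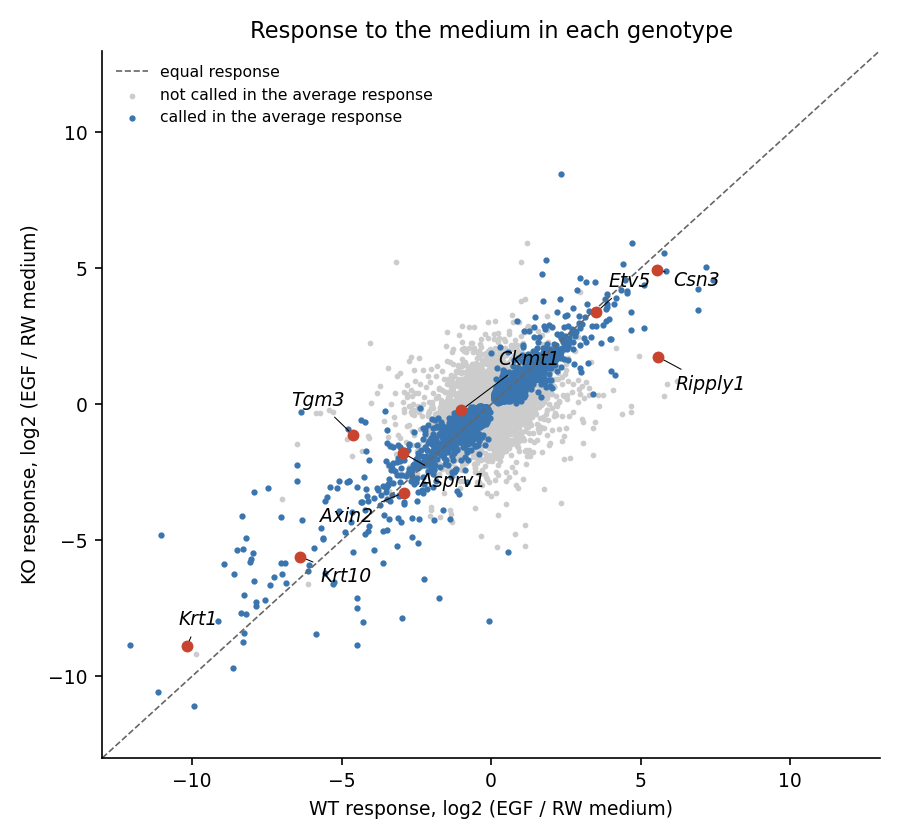
Log2 response to EGF against RW medium of each of 16581 genes, WT on the x axis and KO on the y axis. Genes called in the average of both responses are blue, the dashed line marks equal responses, and 9 genes marked by name are red. The points lie along the line, with Csn3 at 5.54 and 4.95 and Krt1 at -10.17 and -8.88.

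Genes that report on the pathways of both media moved the same way in both genotypes, though the intervals of their interactions were wide. Others of this kind, Dusp6, Areg and Spry4, are given further below. Axin2, a feedback inhibitor that is a standard Wnt target, had 20.7, 41.7 and 54.3 CPM in WT_RW, 4.48, 5.05 and 4.45 in WT_EGF, 19.9, 78.5 and 74.6 in KO_RW, and 1.73, 9.45 and 6.90 in KO_EGF. In EGF medium it fell by 2.92 log2 in WT and by 3.25 in KO, and the interaction was -0.33 ± 0.53 (SE). The media did not overlap for Axin2 in either genotype, while the genotypes overlapped within each medium. Etv5, an ETS factor induced by ERK, had 11.9, 14 and 11.7 CPM in WT_RW, 160, 105 and 173 in WT_EGF, 9.01, 15.6 and 15.9 in KO_RW, and 162, 93.8 and 171 in KO_EGF. Its responses of 3.51 in WT and 3.38 in KO passed the test in both genotypes, and the interaction was -0.14 ± 0.39. The related factor Etv1 rose by 3.84 and 3.51, with an interaction of -0.33 ± 0.29.

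For the lineage genes that follow, no interaction passed either, though the SE reached 0.68 for Krt10. Csn3, which encodes the milk protein kappa-casein, had 9.24, 8.59 and 18.4 CPM in WT_RW, 604, 441 and 535 in WT_EGF, 9.29, 22 and 32.3 in KO_RW, and 581, 573 and 717 in KO_EGF. It rose in EGF medium in both genotypes, and the interaction of -0.58 ± 0.50 did not pass. Krt10, a keratin of suprabasal epidermis, fell by 6.39 in WT and by 5.6 in KO, with an interaction of 0.78 ± 0.68. The basal keratin gene Krt5 fell by 1.13 and by 1.17 (interaction -0.04 ± 0.21), and Lgr5, a receptor for R-spondins, fell by 0.65 and by 0.51 (0.13 ± 0.15). The luminal keratin gene Krt8 was not called in either genotype (0.18 and 0.28, interaction 0.10 ± 0.17). The proliferation gene Mki67 fell by 0.59 and by 0.58 (0.02 ± 0.19), while Egfr, the receptor for EGF, was not called in either genotype (0.11 and 0.09, interaction -0.02 ± 0.15).

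No gene passed the test of the interaction: 0 of 16581, or 0%, at an adjusted p under 0.05 by edgeR, with a smallest adjusted p of 0.944. At an unadjusted p under 0.05 there were 309 genes, 105 higher and 204 lower in the knockout response (1.86%, 0.633% and 1.23% of the genes tested). An even spread of p over 0 to 1 would put 829 genes there, so that small p-values were fewer than that. DESeq2 called 1 gene, Ckmt1, with 406 genes at an unadjusted p under 0.05. The fit of all 18 libraries called 0, with 356 at an unadjusted p under 0.05. The p-values of the main fit were also adjusted again without the 160 tested genes within 10 Mb of Rasgrp1, with 0 called. The smallest p, that of Ckmt1, lies among the genes left out, so this adjustment could hardly give another result.

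**Figure D2:**
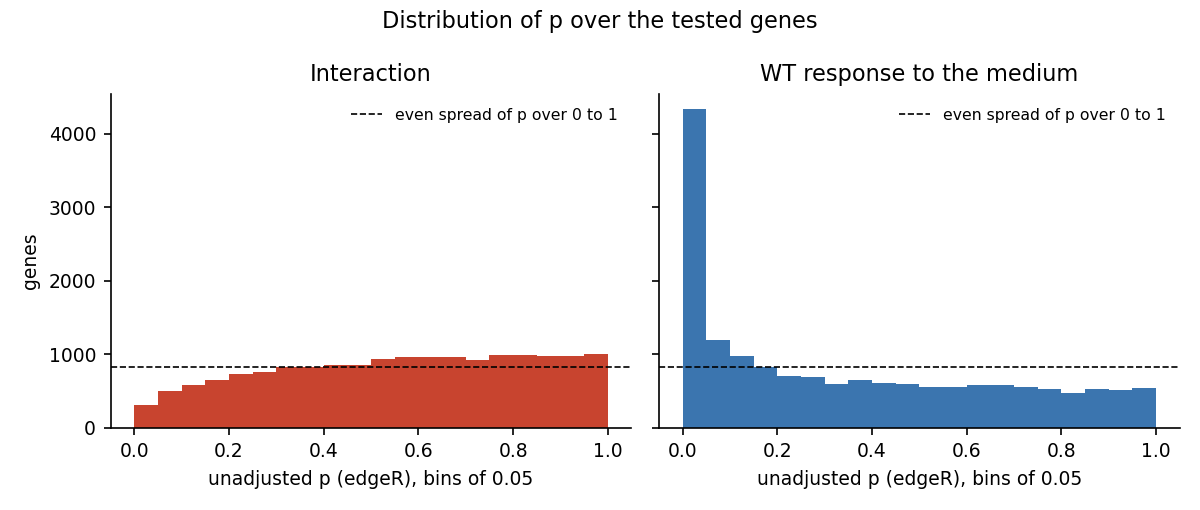
Number of genes (y axis) in bins of 0.05 of the unadjusted edgeR p (x axis), for the interaction on the left and for the WT response to the medium on the right. The dashed line is the height of an even spread; the first bin holds 309 genes for the interaction, below that line, and 4330 for the WT response, far above it.

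The precision of the fit limits what these zero calls cover. The median SE of an interaction was 0.23 log2, and for a single gene standing alone to pass the adjustment it would need an interaction of about 1.89 log2 at that gene's own SE (median over genes), or 1.24 among the 10007 genes with at least 10 CPM. The 95% interval of the interaction lay within -1 to 1 for 10407 genes, 62.8% of those tested. Among the 4102 genes called in the average of both responses (24.7% of the genes tested), it lay there for 3243 genes, or 79.1%. In this balanced design the average does not use the interaction's value, but both tests share a gene's spread. The choice thus favours genes of small SE, with a median of 0.18 among the 4102, so the higher share follows in part from the choice. A larger or smaller overall response in the knockout was not stable: over these 4102 genes the KO response was smaller than the WT response for 57.1%, with a median difference in size of -0.03 log2, but for 45.7% in batch 1, 56.7% in batch 2 and 61.2% in batch 3. Without single libraries that share ran from 49.5% (without replicate 3 of WT_EGF) to 62.5% (without replicate 1 of WT_EGF or of WT_RW), with medians of 0.0016, -0.06 and -0.05, and it was 53.9% without replicate 2 of KO_RW, with a median of -0.01.

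The smallest p belonged to Ckmt1, a mitochondrial creatine kinase that passes phosphate from ATP to creatine (chr2:121357714-121363737, GRCm38, plus strand, 4.01 Mb from Rasgrp1 and overlapping Strc). It had 143, 108 and 159 CPM in WT_RW, 61.8, 58.3 and 83.8 in WT_EGF, 177, 176 and 207 in KO_RW, and 169, 144 and 166 in KO_EGF. Every KO library lay above every WT_EGF library and above 2 or 3 of the WT_RW libraries, and the 2 media did not overlap in WT. Ckmt1 fell in EGF medium in WT by 1.01 ± 0.09 log2 (adjusted p 1.64e-05), and its response in KO was -0.22 ± 0.09 (adjusted p 0.152). The interaction was 0.78 ± 0.13, with a 95% interval of 0.50 to 1.07, an unadjusted edgeR p of 5.7e-05 and an adjusted p of 0.944. Within the batches it was 1.14, 0.61 and 0.60. DESeq2 gave 0.78 ± 0.16 with an adjusted p of 0.00959, and the authors' deposited table gives 0.77 with an adjusted p of 0.0493. With edgeR and no filter on low counts the adjusted p was 0.0165, so whether Ckmt1 is called rests on the tool and the filter, while its value does not.

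Ckmt1 also stood higher in KO in both single media. The KO level exceeded the WT level by 1.25 ± 0.10 log2 in EGF medium (adjusted p 8.67e-05), and the difference in RW medium was 0.46 ± 0.09 (adjusted p 0.253). It was 0.85 ± 0.11 in the medium that held all 3 factors (adjusted p 0.00185, where 0.0819% of genes were called), whose libraries did not enter the interaction. Because the knocked-out gene lies on the same chromosome, alleles carried along with it and the loss of RasGRP1 cannot be told apart here.

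The authors' deposited table lists 28 genes at an adjusted p under 0.05 for this interaction. Of these, 26 have a log2 value beyond 29 in size and did not pass the filter on low counts used here; the 28 genes have a median of 11.5 reads summed over the 12 libraries and of 17 over all 18. The others are Ckmt1 and Ripply1, which encodes a transcriptional repressor of early mesoderm. Ripply1 had counts of 3, 0 and 1 in WT_RW, 100, 44 and 65 in WT_EGF, 24, 18 and 15 in KO_RW, and 56, 53 and 63 in KO_EGF. Its WT_RW libraries lay below all others. The interaction was -3.86 ± 0.84 (adjusted p 1, edgeR), a value that depends on 4 reads in WT_RW, and the authors' deposited table gives -3.98 with an adjusted p of 0.0493.

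The 20 genes with the smallest interaction p that also had at least 1 CPM and the same sign in all 3 batches were Ckmt1, Ripply1, Pgf, Cyyr1, Csf3, Asprv1, Serpinb9, Csf2rb, Apold1, Ndn, Emcn, Clic5, Caskin1, Mrps6, Selp, Egfl7, Duox1, Gimap6, Clic3 and Pecam1. None was called by edgeR, 16 were negative and 4 positive, and the rule that chose them used the interaction, so their values are a description. Sharing a sign in all 3 batches is not rare, since 27.3% of all genes tested did. Overlapping genes, whose reads may be shared, lie at Cyyr1, Csf2rb, Ndn, Caskin1, Mrps6, Selp, Egfl7, Clic3 and Ckmt1. Without replicate 2 of KO_RW the interaction of Apold1, an early response gene of endothelium, moved from -1.57 to -0.99. In 6 of the 20, Cyyr1, Apold1, Caskin1, Egfl7, Clic3 and Pecam1, WT moved one way and KO the other way in every batch, as did 1.33% of all genes.

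**Figure D3:**
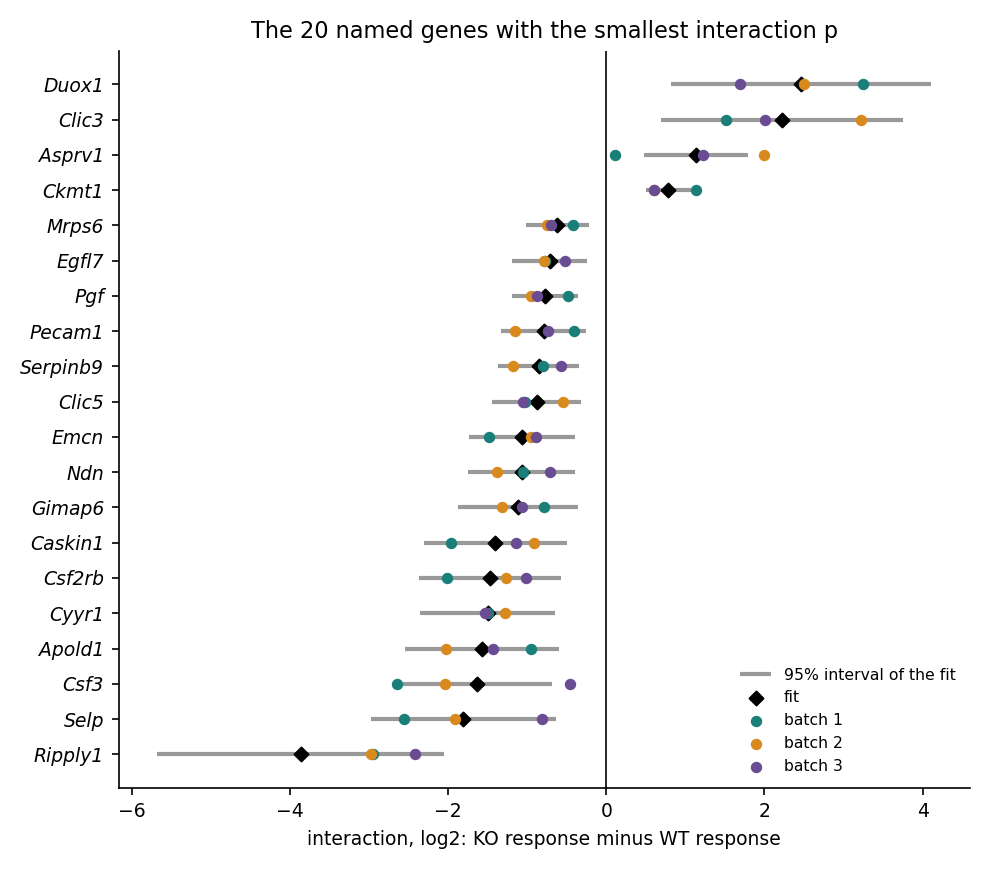
Interaction on the log2 scale (x axis) of these 20 genes (y axis). Black diamonds are the values of the fit with their 95% intervals in grey, and coloured points are the values within each batch; 16 genes lie left of 0 and 4 right of it, with Ckmt1 at 0.78 and the narrowest interval among the 4.

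Among secreted factors and receptors, Pgf, a ligand of the VEGF receptor Flt1, had 23.1, 22.2 and 11 CPM in WT_RW, 44.7, 35.2 and 19.6 in WT_EGF, 29.9, 36.5 and 18.9 in KO_RW, and 41.5, 29.9 and 18.3 in KO_EGF. It rose in WT by 0.82 log2 (adjusted p 0.00141), its KO value was 0.04, and the interaction was -0.78 ± 0.19. Levels in batch 3 were lowest in every group, so the groups overlapped while the change within a batch kept its direction in WT. Csf3, which encodes the granulocyte growth factor G-CSF, had 0.328, 3.10 and 1.82 CPM in WT_RW, 6.98, 23.6 and 7.85 in WT_EGF, 1.81, 8.82 and 3.50 in KO_RW, and 5.27, 16.1 and 10.9 in KO_EGF. It rose in both genotypes, by 2.97 in WT and by 1.34 in KO (adjusted p 6.14e-05 and 0.0101), with an interaction of -1.63 ± 0.44. Csf2rb, the shared receptor subunit for GM-CSF, IL-3 and IL-5, rose in WT by 0.99, had -0.48 in KO, and had an interaction of -1.47 ± 0.41. The reading for Csf3 varied among batches, at -2.64, -2.04 and -0.45.

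The 4 positive genes were Ckmt1, Asprv1, Duox1 and Clic3, and 3 of them fell in EGF medium in WT. Asprv1, a protease of the upper epidermis, had 17.9, 42.5 and 43.6 CPM in WT_RW, 3.81, 3.50 and 5.53 in WT_EGF, 12.9, 18.6 and 27.7 in KO_RW, and 2.96, 6.19 and 8.24 in KO_EGF. It fell by 2.94 in WT and by 1.80 in KO, both called, with an interaction of 1.14 ± 0.30 and batch values of 0.11, 1.99 and 1.22. The media did not overlap in either genotype. Duox1, an oxidase that makes hydrogen peroxide at the epithelial surface, lies 4.97 Mb from Rasgrp1 and fell by 4.19 in WT and by 1.73 in KO (interaction 2.46 ± 0.76, from levels of at most 6.48 CPM). Clic3, a chloride channel protein, had -1.48 in WT and 0.74 in KO, neither called, and an interaction of 2.22 ± 0.70.

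Ckmt1 and Duox1 lie on the chromosome of Rasgrp1 and within 10 Mb of it. Over all 160 genes tested within 10 Mb of it, 6 were higher and 4 lower at an unadjusted edgeR p under 0.05 (3.75% and 2.5%), beside 0.633% and 1.23% of all genes tested, none was called, and the median interaction was -0.00. Spred1, an inhibitor of Ras that lies 0.0977 Mb from Rasgrp1, had 73.6, 84.6 and 88.6 CPM in WT_RW, 155, 152 and 154 in WT_EGF, 78.2, 114 and 93.5 in KO_RW, and 139, 137 and 130 in KO_EGF. It rose by 0.91 in WT and by 0.52 in KO, both called, and the interaction was -0.39 ± 0.14 (unadjusted edgeR p 0.0187). All 3 KO_EGF libraries lay below all 3 WT_EGF libraries. Without replicate 2 of KO_RW the interaction was -0.25.

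**Figure D4:**
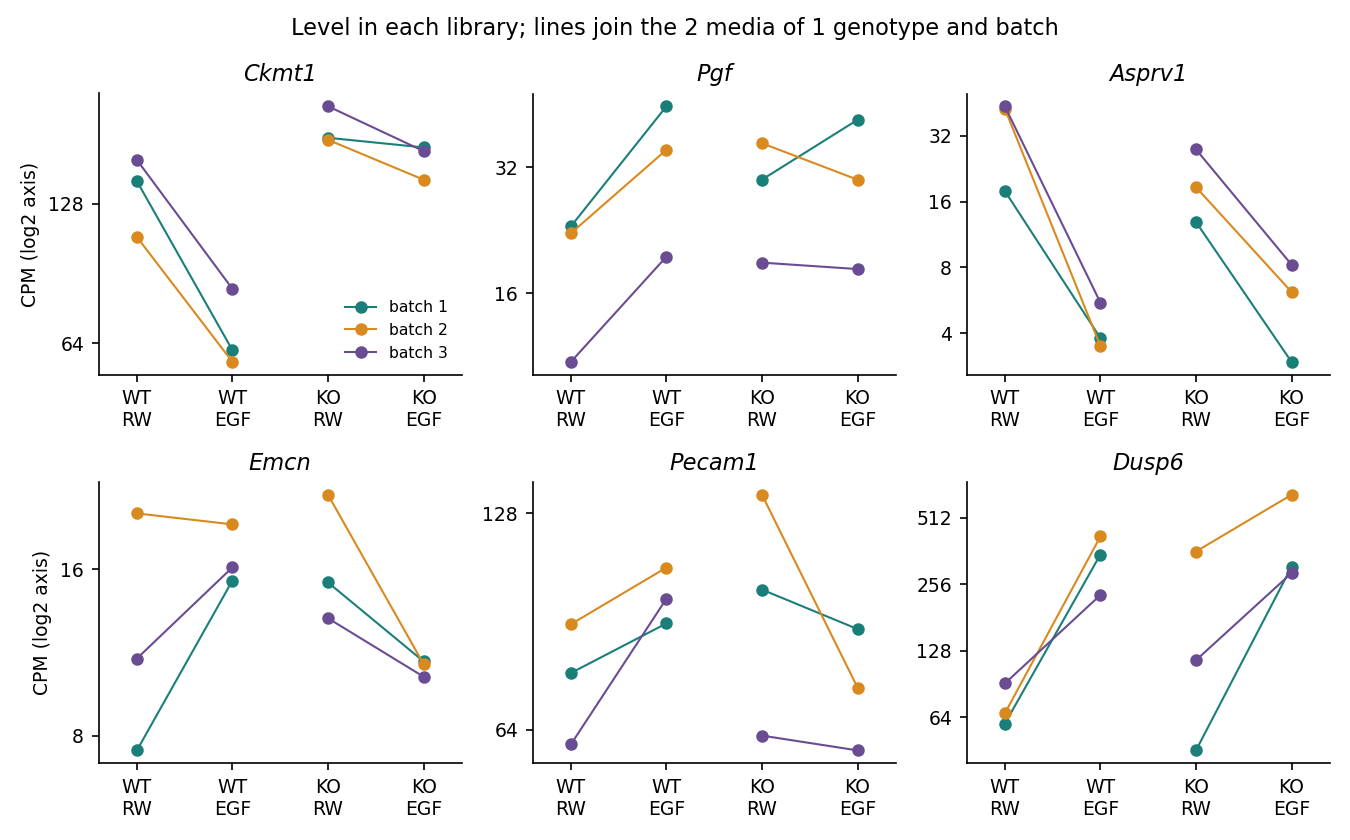
CPM on a log2 axis (y axis) of 6 genes in each library of the 4 groups (x axis), with a colour for each batch and a line joining both media of 1 genotype and batch. For Ckmt1 the WT lines drop further than the KO lines, for Pecam1 the WT lines rise and the KO lines drop, and for Dusp6 the KO_RW library of batch 2 lies at 360 CPM, above the other KO_RW libraries.

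Markers of endothelial cells, which line blood and lymph vessels, formed the list that lay furthest from 0. All 18 tested members of the list had a negative interaction, with a median of -0.72 beside -0.00 for all genes tested. None was called, and 11 of 18 had an unadjusted edgeR p under 0.05, beside 1.23% of all genes in that direction. The list's median response was 0.41 in WT and -0.30 in KO. In WT 2 of the 18 rose (Flt1 and Plvap), beside 8.14% of all genes tested, and in KO Flt1 alone, beside 7.15%. The levels come from whole cultures, so a change in the number of endothelial cells and a change in RNA per cell cannot be told apart.

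Pecam1, an adhesion protein of endothelial junctions, had 76.8, 89.7 and 61.1 CPM in WT_RW, 90.0, 108 and 97.4 in WT_EGF, 100, 136 and 62.9 in KO_RW, and 88.4, 73.3 and 60.0 in KO_EGF. It went up in each WT batch and down in each KO batch, although neither response was called (0.40 and -0.39), and the interaction was -0.79 ± 0.24. Emcn, a sialomucin of venous and capillary endothelium, had 7.53, 20.2 and 11 CPM in WT_RW, 15.3, 19.3 and 16.1 in WT_EGF, 15.1, 21.8 and 13 in KO_RW, and 10.9, 10.8 and 10.2 in KO_EGF. All 3 KO_EGF libraries lay below all 3 WT_EGF libraries, and the interaction was -1.06 ± 0.31. Egfl7, a secreted protein of endothelium whose gene overlaps Agpat2, had -0.71 ± 0.22, and Prox1, the transcription factor of lymphatic endothelium, had -1.45 ± 0.48. For the VEGF receptors Kdr, Flt1 and Flt4 the values were -0.67 ± 0.46, -0.49 ± 0.43 and -0.80 ± 0.30, and for the angiopoietin receptor Tek -0.77 ± 0.34.

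The batches and single libraries carried different parts of this pattern. The list's median was -0.34 in batch 1, -0.99 in batch 2 and -0.66 in batch 3, with 13, 17 and 18 of the 18 negative and 12 negative in all 3. Without replicate 2 of KO_RW the median was -0.51, 17 members were negative and 6 members had an unadjusted p under 0.05. Without replicate 3 of WT_EGF it was -0.48 with 16 negative and 5 such members, and without the batch in the model 2 members were left. The summed level of the 18 genes ran from 442 to 596 CPM in WT_RW, 626 to 790 in WT_EGF, 434 to 890 in KO_RW and 505 to 651 in KO_EGF, so the KO_RW libraries spanned all other groups, and none of the 18 genes was at 0 throughout. The genotypes changed order between the media: the list's median KO against WT difference was -0.40 in EGF medium, with 18 of 18 negative, 0.30 in RW medium, with 1 negative, and 0.27 in the medium with all factors, with 3 negative. The interaction is the difference of the EGF and RW values, so these are the same values seen another way, while the last comes from other libraries.

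Lists of other cell types had medians of either sign. Markers of pericytes and vascular muscle, the cells that wrap small vessels, were negative in 8 of 8, with a median of -0.34, 1 unadjusted p under 0.05 (Abcc9, a potassium channel subunit, -0.84 ± 0.28) and no call. That median was -0.18 without replicate 2 of KO_RW. Fibroblast markers had a median of -0.33, with 14 of 18 negative, and -0.10 without that library. The collagen genes Col1a1 and Col3a1 had -0.43 ± 0.33 and -0.32 ± 0.39, and Dpp4, a surface peptidase, had 2.24 ± 0.77 from levels of at most 4.41 CPM. Myeloid markers summed to 232 to 373 CPM in WT_RW and 306 to 358 in KO_RW, and to 724 to 1081 in WT_EGF and 746 to 935 in KO_EGF. Their median interaction was 0.49, with a median SE of 1.04, and the lymphocyte list had 4 of 17 members above the filter, with Ms4a1, Cd3e and Cd3d at 0 in every library. Skeletal muscle markers lay on the other side, with a median of 0.59, 6 of 8 positive and batch medians of 0.75, 0.67 and 0.56. They had 1 unadjusted edgeR p under 0.05 (Myh1) and a median SE of 0.90. Their levels were low and uneven, with sums from 13.6 to 81.1 CPM. The highest sums were 81.1 and 67.1 CPM, in replicate 1 of KO_RW and of KO_EGF. Schwann cell markers had a median of 0.14 with 5 of 8 positive (0.01 without replicate 2 of KO_RW), and adipocyte markers -0.12 with 11 of 13 negative. Of all genes tested, 0.633% were higher and 1.23% lower at an unadjusted edgeR p under 0.05. The part of these cells in the interaction of other genes was not tested.

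**Figure D5:**
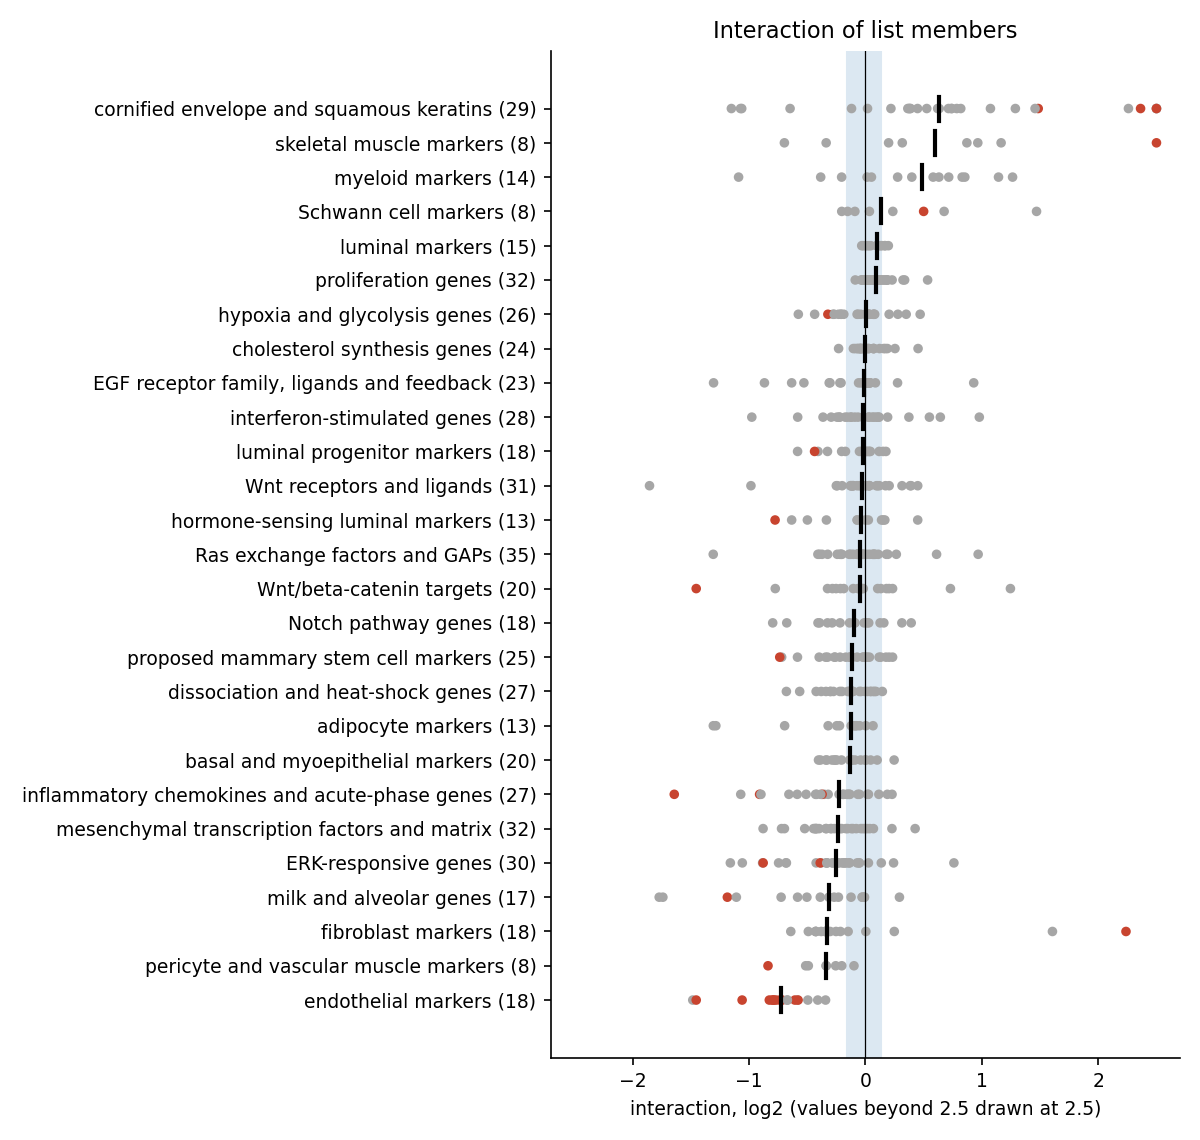
Interaction on the log2 scale (x axis) of the tested members of each list with 8 or more of them (y axis, with their number). Red points have an unadjusted edgeR p under 0.05, black bars are list medians and the blue band holds the interquartile range of all genes; endothelial markers lie lowest, with a median of -0.72, and genes of the cornified envelope highest, with 0.63.

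Genes of the cornified envelope, the cross-linked protein shell of squamous epithelium, and the keratins of that tissue made up the list with the most positive median, 0.63, with 24 of 29 members positive. None was called, and 3 had an unadjusted edgeR p under 0.05 (Cdsn, Dsg1a and Tgm3), beside 0.633% of all genes in that direction. In WT 22 of the 29 fell in EGF medium and 1 rose, beside 6.39% and 8.14% of all genes tested. In KO 17 fell and 1 rose, beside 5.51% and 7.15%. The list medians were -3.80 in WT and -3.16 in KO. The rising gene was Krt4 in both genotypes.

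Cdsn, which encodes the junction protein corneodesmosin, had 12.7, 48.7 and 36.2 CPM in WT_RW, 3.27, 4 and 3.86 in WT_EGF, 13.6, 13.1 and 17.1 in KO_RW, and 5.02, 5.03 and 4.81 in KO_EGF. It fell by 3.04 in WT and by 1.56 in KO, and the interaction was 1.48 ± 0.47. The 3 KO_EGF libraries lay above the 3 WT_EGF libraries by little, and in RW medium 2 WT libraries lay far above all KO libraries. Tgm3, a transglutaminase that joins envelope proteins, had 3.47 ± 1.17 from levels of at most 3.45 CPM. The desmosomal cadherin gene Dsg1a fell in both genotypes, with -8.61 in WT and -6.24 in KO, and an interaction of 2.36 ± 1.07. The batches differed: the list's median was -0.47 in batch 1, where 20 of 29 were negative, 0.99 in batch 2 and 1.35 in batch 3, and the pooled median without batch 3 was 0.26. The sign of the list therefore did not hold within batch 1.

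The promoters of this list were searched for motifs of factors downstream of both media. The letters TGANTCA, the binding motif of AP-1 (dimers of Fos and Jun proteins), were searched on both strands in the 250 bases before each RefSeq gene start. They were found for 9 of the 20 list members in the promoter table, or 45.0%, beside 7.82% of its 27025 genes. The 9 include the related genes Flg and Flg2, and Sprr1a and Sprr1b, so they are not independent members. The ETS letters CCGGAA were found for 0 of the 20, beside 13.6% of all genes, and the TCF/LEF letters CTTTGA for 6 of the 20, or 30.0%, beside 15.8%. For the endothelial list, 12 of 18 members were in the table, and these held AP-1 letters in 0, ETS letters in 1 (Kdr) and TCF/LEF letters in 2. No motif overlapped another in the sequences below, which show 3 cornified envelope genes whose file and RefSeq start sites coincide, with the AP-1 letters in capitals. They are RefSeq sequences of GRCm38.p6, 5′ to 3′ on the gene's strand, and the 3 were chosen after the matches were seen.
Lor (loricrin), chr3:92083143-92083392, minus strand: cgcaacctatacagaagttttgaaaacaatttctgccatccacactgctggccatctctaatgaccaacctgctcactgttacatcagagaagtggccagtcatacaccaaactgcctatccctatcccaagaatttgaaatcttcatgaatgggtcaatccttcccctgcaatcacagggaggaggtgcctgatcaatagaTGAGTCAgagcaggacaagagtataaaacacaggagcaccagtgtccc
Sbsn (suprabasin), chr7:30751221-30751470, plus strand: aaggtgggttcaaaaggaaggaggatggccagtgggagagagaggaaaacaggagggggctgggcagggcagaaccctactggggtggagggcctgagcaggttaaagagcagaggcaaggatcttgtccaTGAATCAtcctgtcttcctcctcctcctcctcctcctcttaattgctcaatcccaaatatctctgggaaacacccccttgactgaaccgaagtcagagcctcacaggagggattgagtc
Dmkn (dermokine), chr7:30763506-30763755, plus strand: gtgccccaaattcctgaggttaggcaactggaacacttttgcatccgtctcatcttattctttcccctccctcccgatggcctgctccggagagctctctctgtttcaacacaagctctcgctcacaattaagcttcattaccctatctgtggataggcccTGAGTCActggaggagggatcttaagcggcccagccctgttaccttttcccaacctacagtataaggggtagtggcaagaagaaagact

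The motif begins 48 bases before the start of Lor, 119 before Sbsn and 89 before Dmkn. Dmkn, a secreted protein of upper epidermis, fell by 3.50 in WT and by 3.48 in KO (interaction 0.02 ± 0.49). Sbsn, another secreted protein of that layer, fell by 1.59 and by 1.37 (0.22 ± 0.18). Lor, the main protein of the envelope, fell by 1.24 in WT (adjusted p 0.0335) and had -0.43 in KO, not called, with an interaction of 0.82 ± 0.50. A match of letters is not a bound site, and whether the motif goes with the interaction was not tested.

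ERK-responsive genes had a negative median of -0.26 with 26 of 30 members negative and none called. At an unadjusted edgeR p under 0.05 there were 2 (Spred1 and Plaur), beside 1.23% of all genes in that direction. The list's mean summed level was 7931 CPM in WT_EGF and 7730 in WT_RW, and 7596 in KO_EGF and 9121 in KO_RW, with 13517 in replicate 2 of KO_RW. Whether the list reads out Ras signalling in these cultures was not tested. In WT 8 rose and 2 fell, beside 8.14% and 6.39% of all genes tested. In KO 5 rose and 2 fell, beside 7.15% and 5.51%. Single libraries of 2 groups each brought the median close to 0. Without replicate 2 of KO_RW it was -0.04 with 18 of 30 negative and no member at an unadjusted p under 0.05. Without replicate 1 of WT_EGF it was -0.01 with 16 of 30 negative. By batch the median was 0.11, -0.83 and 0.06.

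Dusp6, the phosphatase that switches off ERK, shows this in single libraries. It had 59.9, 66.8 and 91.1 CPM in WT_RW, 349, 421 and 229 in WT_EGF, 45.4, 360 and 116 in KO_RW, and 307, 649 and 287 in KO_EGF. Replicate 2 of KO_RW lay in the range of the EGF libraries, and the interaction of -0.68 ± 0.78 became -0.01 without it. Plaur, the urokinase receptor, had -0.88 ± 0.33, and -0.55 without that library. Fos and Egr1, immediate early genes, had -0.42 ± 0.52 and -0.34 ± 0.53. Spry4, a feedback inhibitor of Ras, rose in WT by 0.67, had 0.44 in KO, not called, and an interaction of -0.23 ± 0.24.

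Upstream of ERK, the list of EGF receptors, ligands and feedback regulators had a median interaction of -0.01, with 12 of 23 negative and 0 at an unadjusted edgeR p under 0.05. Areg, the ligand amphiregulin, had 15.2, 24.4 and 17.9 CPM in WT_RW, 47.0, 40.6 and 28.9 in WT_EGF, 13.1, 30.1 and 29.6 in KO_RW, and 30.2, 33.2 and 31.9 in KO_EGF. It rose in WT by 1.06 (adjusted p 0.0305), its KO value of 0.42 was not called, and the interaction of -0.63 ± 0.39 did not pass. The ligand Tgfa rose in WT by 0.64 and had 0.34 in KO (-0.30 ± 0.19), while the receptors Erbb2 and Erbb3 had 0.09 ± 0.17 and 0.04 ± 0.13. Among 35 exchange factors and GTPase-activating proteins for Ras, the median was -0.04 and 31 had a 95% interval within -1 to 1. Rasgrf2, another Ras exchange factor, had the smallest p of these, with -1.31 ± 0.61 (unadjusted edgeR p 0.053).

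On the Wnt side, the 20 tested targets of beta-catenin had a median interaction of -0.05, 13 negative and 7 positive, with 1 unadjusted edgeR p under 0.05 (Prox1) and no call. In WT 3 rose and 9 fell in EGF medium, beside 8.14% and 6.39% of all genes tested. In KO 3 rose and 10 fell, beside 7.15% and 5.51%. Lef1, a TCF/LEF factor, rose by 4.70 in WT and by 5.95 in KO (1.25 ± 0.96), and Tnfrsf19, a receptor of the TNF family, fell by 2.90 and by 3.67 (-0.77 ± 0.76). The cell cycle gene Ccnd1 fell by 1.27 and by 1.32, with an interaction of -0.05 ± 0.13. The 31 Wnt receptors and ligands had a median of -0.03.

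The epithelial lineage lists had medians between -0.31 and 0.10. Basal and myoepithelial markers had a median of -0.13 with 16 of 20 negative, luminal markers 0.10 with 13 of 15 positive, hormone-sensing luminal markers -0.03, luminal progenitor markers -0.02 and proposed mammary stem cell markers -0.12. Each of the 15 luminal markers had a 95% interval within -1 to 1. Milk and alveolar genes had -0.31 with 16 of 17 negative, and -0.08 without replicate 2 of WT_EGF. Csn1s1, the alpha casein gene, rose by 2.74 and by 2.02 (-0.72 ± 0.36), and Lalba, which encodes alpha-lactalbumin, rose by 4.55 and by 4.16 (-0.39 ± 0.56).

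Proliferation genes had a median of 0.09 with 27 of 32 positive and none at an unadjusted edgeR p under 0.05. In WT 15 of the 32 fell in EGF medium and 1 rose, beside 6.39% and 8.14% of all genes tested. In KO 5 fell and 1 rose, beside 5.51% and 7.15%. The interaction did not bear out this difference in calls for any gene. By batch the median of the proliferation list was -0.15, 0.35 and 0.13, with 27, 0 and 4 of the 32 negative, so its sign did not hold within batch 1. Without replicate 3 of WT_EGF the median was -0.05. Inflammatory chemokines and acute-phase genes had a median of -0.23 with 22 of 27 negative and none called. At an unadjusted edgeR p under 0.05 there were 3, beside 1.23% of all genes in that direction. They were the chemokine genes Ccl2 (-0.91 ± 0.31, and -0.53 without replicate 2 of KO_RW) and Ccl7 (-1.64 ± 0.58) and the adhesion gene Icam1 (-0.37 ± 0.12). Icam1 fell in both genotypes, by 0.35 in WT and by 0.72 in KO. That median was -0.10 without replicate 2 of KO_RW. Interferon-stimulated genes had a median of -0.02 with a median SE of 0.62, cholesterol synthesis genes -0.00, hypoxia and glycolysis genes 0.01, Notch pathway genes -0.10, and mesenchymal factors and matrix genes -0.24 (-0.13 without replicate 2 of KO_RW).

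The direct comparison of the genotypes gave few genes. KO against WT gave 9 called genes in EGF medium (0.0543% of those tested), 7 higher (0.0422%) and 2 lower (0.0121%). In RW medium it gave 8 (0.0482%), 5 higher (0.0302%) and 3 lower (0.0181%), which makes 10 different genes over both media. Ide, the insulin-degrading enzyme gene on chromosome 19, was lower in KO by 1.16 ± 0.07 in each medium, with an interaction of -0.00 ± 0.09. Wdfy1, on chromosome 1, had -1.59 ± 0.13 and -1.42 ± 0.13 (interaction -0.16 ± 0.18), and Mapkbp1, 2.63 Mb from Rasgrp1, had 0.81 ± 0.07 and 0.60 ± 0.07 (interaction 0.20 ± 0.10). In the medium with all factors the KO against WT difference was -1.10 for Ide, -1.85 for Wdfy1 and 0.75 for Mapkbp1. Of the 10 genes, Ckmt1 alone had an unadjusted interaction p under 0.05. Whether the loss of RasGRP1 or other alleles that differ between the WT and KO mice lie behind these genotype differences was not tested.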

How the data were processed

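RNA was sequenced from mouse mammary organoids, with 100 ng of input RNA and single-end reads of 50 bases per the labels' protocols. The authors deposited raw counts per gene, aligned with STAR to GRCm38 per the submitters' processing notes. No source used here gives versions or the strand setting, so antisense partners cannot be told apart. A table deposited by the authors also gives log2 fold changes with p-values for the genotype-by-treatment term, per the file headers, made with DESeq2 per the submitters' processing notes. That term equals the interaction contrast, sign included.

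Counts were tested in R 4.3.3 with edgeR 4.0.16 (limma 3.58.1): TMM scaling, a filter of 10 counts (total 15), group and batch as terms, robust quasi-likelihood F-tests, and Benjamini-Hochberg adjustment over all 16581 genes. SE is the log2 value divided by the root of F. Within-batch values used log2 CPM with a prior count of 2. DESeq2 1.42.0, RLE size factors, other filters, all 18 libraries, no batch term and leaving out each library or batch were tried. The medium with all factors was tested in the fit of 18 libraries. The test was checked on simulated data.

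The batch number pairs libraries, since the labels give it as a shared batch. Deviations from the group means correlated at 0.19 to 0.48 within a batch and at -0.29 to -0.00 between batches. The deviations of a group sum to 0 over its 3 libraries, so the values below 0 between batches follow from the centring and say nothing further. The named genes were the 20 with the smallest interaction p at 1 CPM or more and 1 sign in 3 batches (no gene was called), preset pathway and lineage genes, and the 2 smallest p of each list. Other list members named were chosen after their values were seen. The comparison, its genes and the lists were chosen with earlier results of these data known.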

Additional observations from a re-analysis of the deposited data

Results flagged for a closer look

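Ckmt1 had an interaction of 0.78 log2, and the test of that difference between genotypes passed in DESeq2 (adjusted p 0.00959) and in the authors' deposited table (adjusted p 0.0493), though not in edgeR (adjusted p 0.944). Ripply1 had an interaction of -3.86, which passed in the authors' deposited table (adjusted p 0.0493) and missed in DESeq2 (adjusted p 0.341) and in edgeR (adjusted p 1).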

How the results depend on the processing

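The count of genes called in the interaction was 0 in each of the 15 fits that left out 1 library or 1 batch (0 to 0, with 230 to 650 genes at an unadjusted p under 0.05), and 0 with RLE size factors, with a stricter filter and with all 18 libraries. It was 1 with DESeq2 and 1 with no filter on low counts, Ckmt1 both times. Without the batch as a replicate block it was 0 (98 at an unadjusted p under 0.05), and the calls were 835 for the WT response, 715 for the KO response, 1909 for their average, 4 for KO against WT in RW medium and 6 in the medium with all factors. KO against WT in EGF, RW and the full medium gave 27, 35 and 30 genes with DESeq2 and 5, 4 and 9 with the stricter filter. With no filter the EGF and RW counts were 18 and 19, and with all 18 libraries the RW count was 14. The cause of these shifts was not tested.

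Leaving out 1 library or batch gave 901 to 2599 calls for the WT response, 841 to 2171 for the KO response and 1991 to 4039 for their average. For KO against WT it gave 4 to 10 in EGF medium, 1 to 8 in RW medium and 4 to 16 in the full medium. The lowest count came without replicate 3 in each of these except EGF medium, where it came without replicate 1. The interaction of Ckmt1 ran from 0.60 without replicate 1 to 0.88 without replicate 3, with adjusted p from 0.00959 to 1 over its alternatives. Counted over every pair of a list and a fit, list medians moved by more than the replicate spread in 64 pairs where the fit left out a library or batch (371 did not) and in 7 pairs with another setting (165 did not).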
